A study of Mus musculus with 1392 samples.

Results

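The loci of 4 ETS transcription factor genes, Erg, Ets2, Fli1 and Ets1, were examined in single-cell ATAC-seq of haematopoietic stem cells. The members were all peaks of the deposited table that overlap chr16:95300000-95760000, set for Erg and then Ets2, or chr9:32200000-32600000, set for Fli1 and Ets1, both in the mouse build mm9. This gave 100 of the 115295 peaks in the table, 41 on chromosome 16 and 59 on chromosome 9. Position alone chose them, and no count entered the choice. The chromosome 16 region is called the Erg window and the chromosome 9 region the Fli1-Ets1 window.

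The groups were Old-HSC and Young-HSC, cells sorted from the bone marrow of old and young C57BL/6 mice, with no age in weeks or months in the sources used here. Cells of both ages shared 1 sort, for Sca-1 and Kit without lineage markers, with CD150 and Vwf and without CD48 and CD34. No genotype, transgene or treatment is given for either age. The titles number 3 old sets, together of 1060 cells with 306 in old 1 and 380 in old 2, and 2 young sets, of 181 cells in young 1 and 151 in young 2. The sources used here do not tie a set to an animal or plate. Sets served as the replicates, so the p-values reflect variation among sets, which could be technical. Age and how a set was prepared cannot be told apart.

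ETS factors share a DNA-binding domain that recognises sites with the core GGAA. Erg and Fli1 are close relatives, and both belong to the group of transcription factors that bind together at blood stem cell enhancers. Erg is needed to maintain haematopoietic stem cells, and Fli1 is needed for platelet-forming megakaryocytes. Ets1 is best known in lymphocytes, and Ets2 is a target of MAP kinase signalling. In the genome Erg lies beside Ets2, and Fli1 beside Ets1, the remnant of an ancestral duplication that makes these gene pairs paralogous. ATAC-seq counts transposase insertions into open DNA and does not measure how strongly a gene is transcribed.

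The gene names were checked against the peaks, since no annotation of mm9 was used here. The spacing of protein-coding gene starts in the GRCm38.p6 assembly was slid along the mm9 peaks, and starts within 500 bp of a peak open in at least 100 cells were counted. At the best placement 19 of 35 starts around the Fli1-Ets1 window met such a peak, against at most 6 at other placements. Around the Erg window 11 of 22 starts did so, against at most 4 elsewhere. By this placement the Fli1-Ets1 window held 100% of the length of Fli1 and of Ets1. The Erg window held 79% of Erg and 100% of Kcnj15, a potassium channel gene, and 0% of Ets2. The data thus go against the Ets2 part of the chromosome 16 label, and the Erg window is not the full counterpart of the Fli1-Ets1 window. The peak that lined up with the start of Ets2 was chr16:95923363-95924827, above the window. It and the 31 other peaks between the window and chr16:96060000 are given beside the members as the adjoining stretch, chosen after the values were seen and never counted as members.

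Promoters are shown for the gene starts that lined up with a peak, because they are the points at which accessibility can be tied to a gene by name. Each runs 5′ to 3′ on the gene's strand, across the start and 300 bases long, from RefSeq on GRCm38.p6. Its coordinates are those of GRCm38.p6 and differ from the mm9 positions of the peaks. Capitals mark the ETS core, GGAA or its complement TTCC.
Erg start 1 (chr16:95586544-95586843, minus strand): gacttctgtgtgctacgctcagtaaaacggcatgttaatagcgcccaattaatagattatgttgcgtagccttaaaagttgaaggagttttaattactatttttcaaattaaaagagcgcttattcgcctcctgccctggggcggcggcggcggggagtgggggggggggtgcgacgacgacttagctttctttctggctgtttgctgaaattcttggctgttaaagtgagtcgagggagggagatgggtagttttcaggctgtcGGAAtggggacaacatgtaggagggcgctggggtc
Erg start 3 (chr16:95459299-95459598, minus strand): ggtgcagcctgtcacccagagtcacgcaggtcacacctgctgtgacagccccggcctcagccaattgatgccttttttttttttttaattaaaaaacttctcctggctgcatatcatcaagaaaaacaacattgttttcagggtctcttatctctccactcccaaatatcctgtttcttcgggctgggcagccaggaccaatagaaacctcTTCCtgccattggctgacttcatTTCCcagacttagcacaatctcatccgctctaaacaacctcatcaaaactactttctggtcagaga
Ets2 start 1 (chr16:95702157-95702456, plus strand): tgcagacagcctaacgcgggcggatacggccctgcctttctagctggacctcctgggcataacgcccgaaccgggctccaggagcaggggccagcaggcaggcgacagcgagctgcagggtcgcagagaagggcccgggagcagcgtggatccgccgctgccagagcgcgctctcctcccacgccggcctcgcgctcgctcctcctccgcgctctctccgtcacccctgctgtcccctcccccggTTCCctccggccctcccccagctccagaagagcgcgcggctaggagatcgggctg
Fli1 and Ets1 are named only, because the promoters used here had no entry for them. Whether their starts met a peak was therefore not looked up.

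The Ets2 promoter was the most CpG-rich of the 3, with 30 CpG and 71.7% G+C. Erg start 1, the outer start of the gene, had 16 CpG and 50.3% G+C. The inner Erg start 3 had 4 CpG and 46% G+C. Over all 32851 promoters of the table the medians were 7 CpG and 52.7% G+C. The ETS core, searched on both strands, occurred in Erg start 3 at 2 places, in Erg start 1 at 1 and in Ets2 at 1, and 96% of all promoters held it, with a median of 3. The word GATA, the core bound by GATA factors, occurred at 3 places in Erg start 3, at 1 in Ets2 and at 0 in Erg start 1, against 57.9% of all promoters with at least 1. The E-box CANNTG, bound by factors such as Tal1, occurred at 2 places in Erg start 3 and at 0 in the other promoters shown, against 72.3% of all promoters with at least 1. A match describes the letters and is not a measured site. In these cells the Ets2 start met a peak 1464 bp wide, Erg start 1 a peak 1140 bp wide and Erg start 3 a peak 795 bp wide, while another Erg start and the start of Kcnj15 met none.

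Over the cells of both ages together, the windows held more peaks than most stretches of the same length. Tiles of the genome without any peak were left out. The Fli1-Ets1 window held 59 peaks where the median 400 kb tile with a peak held 16, more than 98.5% of 5897 such tiles. Its 5337 counts exceeded those of 92.9% of tiles. The Erg window held 41 peaks against a median of 18 in 460 kb tiles, more than 82.3% of 5221 tiles, and its 2895 counts exceeded those of 69.2%. The median member was 346 bp wide and the widest 1378 bp, and members had a count in 0.575% to 27.9% of the 1392 cells. The 5 strongest peaks of each window, those of highest mean accessibility, took 48.0% of the counts in the Erg window and 32.7% in the Fli1-Ets1 window. Accessibility is given below in CPM, the counts of a peak scaled to the total count of its set.

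In the Erg window the counts were gathered near Erg start 3. A run of 14 peaks from chr16:95653844 to chr16:95686570, with no gap over 10 kb, held 62.7% of the window's counts. In the Fli1-Ets1 window a run of 26 peaks from chr9:32307696 to chr9:32378597, across the upper end of Fli1 and beyond, held 44% of the counts. The 11 peaks of the Ets1 stretch had a median of 55 counts, against 66.5 for the 26 peaks of the Fli1 stretch, but 2 of them held 594 and 413 of its 1664 counts. Per kb of peak the Ets1 stretch had 23.2 CPM in old cells and 18.6 CPM in young cells, and the Fli1 stretch 15.4 CPM in old cells and 14.8 CPM in young cells. The run in the Erg window had 27.4 CPM per kb in old cells and 23.5 CPM per kb in young cells, above the 8.97 CPM per kb in old cells and 8.86 CPM per kb in young cells of the rest of that window.

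**Figure D1:**
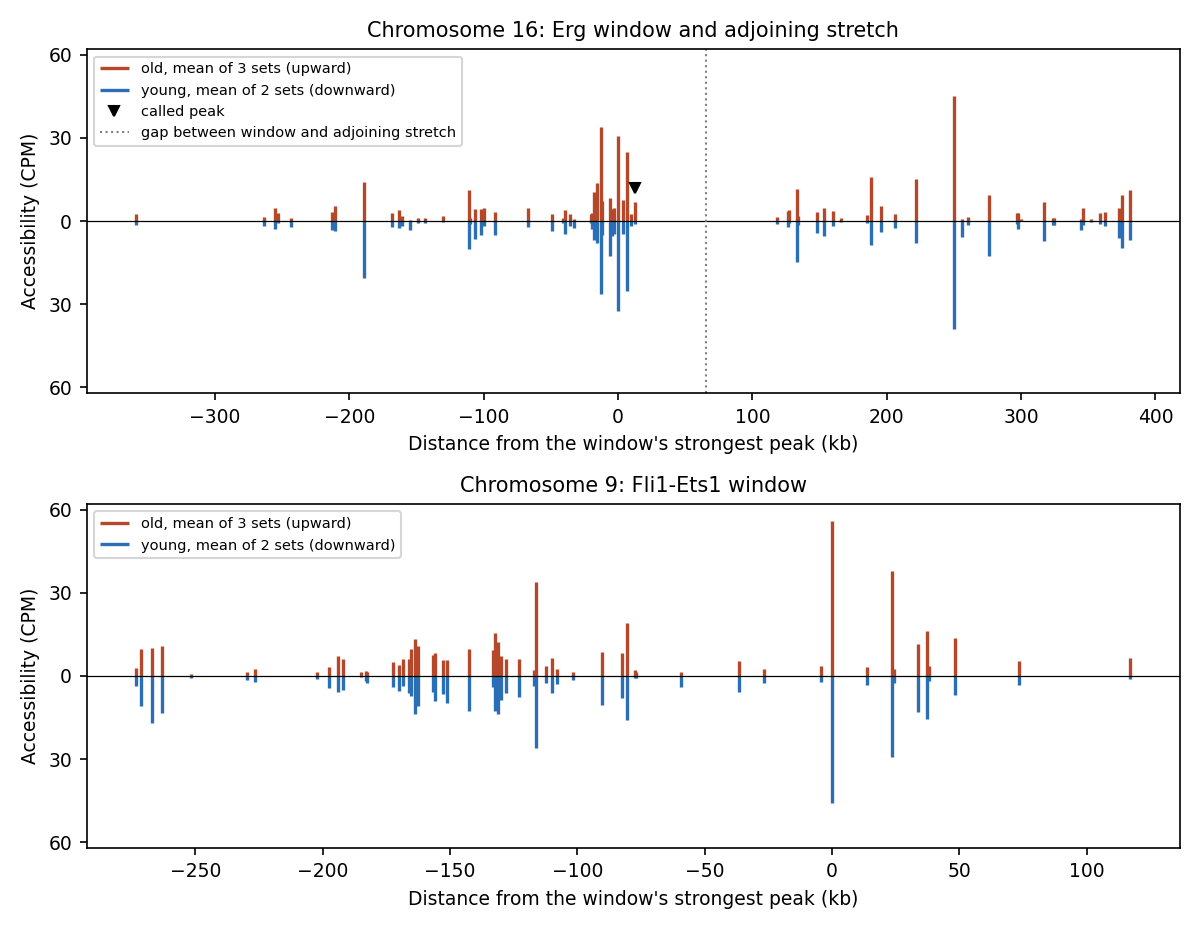
Mean accessibility of every member in CPM, old cells upward and young cells downward, against distance in kb from the strongest peak of the window; the upper panel also shows the adjoining stretch beyond the dotted line. The tall lines stand at the same places in both ages, at up to 56.0 CPM in old cells and 45.7 CPM in young cells for the strongest peak of the Fli1-Ets1 window, and the triangle marks the 1 called member.

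Among the tested members 1 was called, a minor peak within Erg that was more accessible in old cells. Summed counts of each set were compared between old and young cells with edgeR's quasi-likelihood test over all 58167 tested peaks of the table. Called peaks are those with an adjusted p (Benjamini-Hochberg) under 0.05. Of the members, 53 passed the filter on low counts, 18 in the Erg window and 35 in the Fli1-Ets1 window. The filter needs enough counts in as many sets as the smaller group has, so a peak can pass through either age alone. The other 47 had 8 to 55 counts over all cells and together 15.5% of the members' counts. That 1 member of 53 stands against 1.39% of all tested peaks called in that direction. Members called higher in young cells numbered 0, against 1.78% of all tested peaks. Shares this close to those of the table say nothing particular about these loci. At an unadjusted p under 0.05 there were 7 members, 4 higher in old and 3 higher in young cells, where 15.4% of all tested peaks passed in either direction. By DESeq2, 0 members were called. It gave no adjusted p to the member that edgeR called, so it did not retest that call.

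On TMM-adjusted totals, all old sets lay above both young sets at 10 of the 53 tested members, against 16.4% of all tested peaks, and below both at 7, against 16.7%. For single peaks below, sets are compared in CPM on set totals, which can differ. The median log2 fold change of old over young was -0.07 over the tested members, 0.01 in the Erg window and -0.12 in the Fli1-Ets1 window, and -0.01 over all tested peaks. It was positive at 23 and negative at 30 members. With library totals in place of TMM scaling the members' median was 0.03, with 27 positive and 26 negative, and the median of all peaks was 0.09. That scaling also turned the balance of calls over the whole table, with 1051 peaks called towards old and 770 towards young cells, where TMM gave 808 and 1036. For 20 of the 53 the 95% interval lay within a 2-fold change either way, against 43.8% of all tested peaks. The other 33, the called member among them, had intervals that reach past 2-fold, so a change of that size was not excluded there at this depth. Standard errors ran from 0.21 to 0.81 on the log2 scale, with a median of 0.39.

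**Figure D2:**
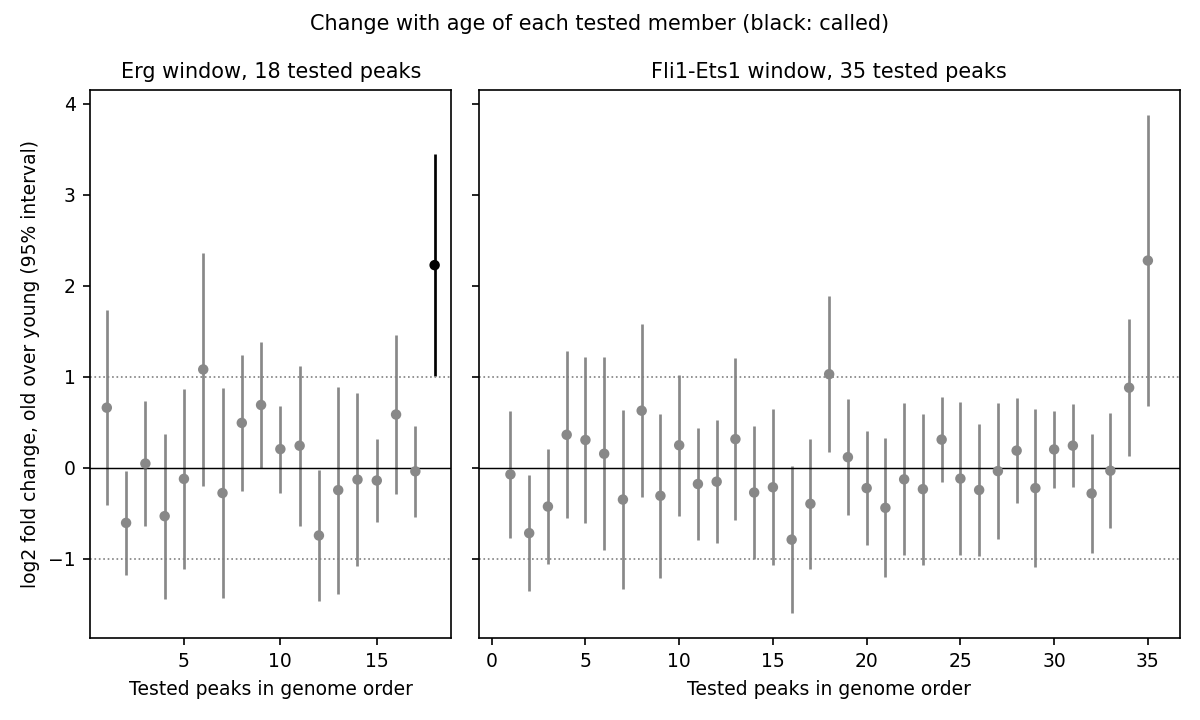
Log2 fold change of old over young for each tested member in genome order, with its 95% interval, and dotted lines at a 2-fold change either way. The 1 called member, in black, stands at 2.23, and the other 52 lie from -0.79 to 2.28 without a call.

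The called member was chr16:95686266-95686570, the uppermost peak of the run near Erg start 3. It had 6.46, 5.18 and 9.14 CPM in old 1, old 2 and old 3, against 0.862 and 1.54 CPM in young 1 and young 2. Every old set lay above both young sets, with a mean of 6.92 ± 2.02 CPM in old cells and 1.20 ± 0.483 CPM in young cells (SD, n = 3 and 2). The log2 fold change was 2.23 (SE 0.62, 95% interval 1.00 to 3.45, edgeR adjusted p = 0.0308). This is a narrow and sparse peak, of 304 bp with 58 counts in 50 cells. The counts were 27, 11 and 15 in old 1, old 2 and old 3, against 1 and 4 in young 1 and young 2. The 5 cells with the most counts held 17.2% of them. The peak passed the count filter through the old sets alone, as neither young set reached its level. The edgeR adjusted p was 0.0504 without old 2, 0.151 without old 3, 0.112 without young 1 and 0.193 without young 2, and without old 1 the peak no longer passed the count filter, so the call rested on every set.

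Its stronger neighbours in the run were not called. The peak at Erg start 3, chr16:95680561-95681356, had 30.1, 22.6 and 22.6 CPM in the old sets, against 25.9 and 24.3 CPM in the young sets. Old sets lay on both sides of the young ones, with a log2 fold change of -0.04 (SE 0.25, edgeR adjusted p = 0.967), which turned positive with library totals as the scaling (0.06). The peak chr16:95673870-95674508, the strongest per kb in the window at 49.2 CPM per kb, had 32.3, 28.7 and 31.1 CPM in the old sets, against 34.5 and 30.5 CPM in the young sets (log2 fold change -0.14, SE 0.23). The peak chr16:95660417-95661795, the widest of the window, had 35.6, 34.3 and 32.3 CPM in the old sets, against 18.1 and 34.8 CPM in the young sets. The young sets lay far apart there, and the log2 fold change of 0.21 was -0.09 without young 1 and 0.88 without young 2, without a call.

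Smaller peaks of the Erg window had the higher mean at either age, without a call. The peak chr16:95658263-95658663 had 15.8, 9.88 and 15.9 CPM in the old sets, against 6.90 and 8.88 CPM in the young sets (log2 fold change 0.69, edgeR adjusted p = 0.337). The peak chr16:95606966-95607555 had a log2 fold change of 1.08 (edgeR adjusted p = 0.442) on values of 3.66 to 5.50 CPM in the old sets, against 1.72 and 2.32 CPM in the young sets. In the other direction, chr16:95484236-95485097, far below the run, had 14.8, 16.0 and 11.0 CPM in the old sets, against 21.6 and 19.7 CPM in the young sets. All old sets were below both young sets at that peak, with a log2 fold change of -0.60 (unadjusted p = 0.0416, edgeR adjusted p = 0.299). The peak chr16:95668041-95668340 had 5.26, 13.2 and 6.70 CPM in the old sets, against 12.1 and 13.1 CPM in the young sets, so old 2 reached the young level (log2 fold change -0.74, edgeR adjusted p = 0.321). The peak chr16:95567548-95567827 had a log2 fold change of -0.53 (edgeR adjusted p = 0.636).

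The outer Erg start and the Ets2 start, in the adjoining stretch, were open at both ages. The Erg start 1 peak, chr16:95806719-95807859, had 12.7, 10.4 and 11.6 CPM in the old sets, against 12.1 and 17.4 CPM in the young sets (log2 fold change -0.47, SE 0.31, edgeR adjusted p = 0.499). The Ets2 start peak had a count in 22.3% of all cells and 51.9, 40.5 and 42.7 CPM in the old sets, against 27.6 and 50.6 CPM in the young sets. The young sets differed by more than the ages did, and the log2 fold change was 0.07 (SE 0.23, 95% interval -0.37 to 0.51, edgeR adjusted p = 0.926). Between these starts, chr16:95895674-95896645 had 17.5, 10.4 and 17.7 CPM in the old sets, against 7.76 and 7.72 CPM in the young sets (log2 fold change 0.90, unadjusted p = 0.0138, edgeR adjusted p = 0.172). Of 12 tested peaks in the adjoining stretch 0 were called, and 2 had an unadjusted p under 0.05.

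The Ets1 stretch, chr9:32444000-32566000, held the strongest member of all. This peak, chr9:32479610-32480642, had a count in 27.9% of cells, which ranked it 1524 of all 115295 peaks by cells. It had 48.8, 52.7 and 66.4 CPM in old 1, old 2 and old 3, against 47.4 and 44.0 CPM in young 1 and young 2. In CPM all old sets were above both young sets, with old 1 close to young 1, and the log2 fold change was 0.20 (SE 0.21, 95% interval -0.22 to 0.62, edgeR adjusted p = 0.713). On TMM-adjusted totals such a separation held at only 1 of the 5 tested peaks of the stretch. The second peak of the stretch, chr9:32503118-32504158, had 36.8, 33.4 and 43.9 CPM in the old sets, against 25.0 and 33.6 CPM in the young sets. The ages overlapped by a small margin there (log2 fold change 0.25, SE 0.23, edgeR adjusted p = 0.673), and in cells thinned to equal depth the sign turned, to -0.21.

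Of the other Ets1 peaks, chr9:32527606-32528898 had the smallest p. It had 9.33, 13.2 and 18.9 CPM in the old sets, against 6.90 and 6.56 CPM in the young sets. All old sets were above both young sets, with a log2 fold change of 0.88 (SE 0.38, unadjusted p = 0.0251), but the peak was not called (edgeR adjusted p = 0.234). The peak chr9:32517038-32517937 had 11.5, 13.2 and 24.4 CPM in the old sets, against 17.2 and 13.5 CPM in the young sets, and its high value came from old 3 alone (log2 fold change -0.03, which turned positive with library totals as the scaling, at 0.07). Just below the stretch, on the side that faces Fli1, chr9:32443562-32443940 was weak at both ages, at 5.98, 4.23 and 6.09 CPM in the old sets, against 5.17 and 6.56 CPM in the young sets (log2 fold change -0.22). The median log2 fold change over the 5 tested peaks inside the Ets1 stretch was 0.20.

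Fli1, in the stretch chr9:32230000-32350000, had many peaks of moderate height. The gene starts on the minus strand, at the upper end of the stretch. The peak across that end, chr9:32349797-32350261, had 7.17, 5.18 and 9.75 CPM in the old sets, against 6.035 and 11.2 CPM in the young sets (log2 fold change -0.44, SE 0.39, edgeR adjusted p = 0.644). Further inside, chr9:32347666-32348230 had 10.8, 16.0 and 20.1 CPM in the old sets, against 12.1 and 13.5 CPM in the young sets (log2 fold change 0.12). Its neighbour chr9:32348844-32349413 had 14.1, 11.8 and 10.4 CPM in the old sets, against 14.7 and 13.1 CPM in the young sets (log2 fold change -0.22). All of these peaks overlapped between the ages. The adjacent 229 bp peak chr9:32346876-32347105 had 8.61, 8.94 and 10.4 CPM in the old sets, against 3.45 and 4.63 CPM in the young sets. All old sets lay above both young sets there, with a log2 fold change of 1.03 (SE 0.44, unadjusted p = 0.022), but without a call (edgeR adjusted p = 0.22).

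Inside Fli1, the largest difference towards young cells was at chr9:32328863-32329346, with 6.94, 2.82 and 7.31 CPM in the old sets, against 11.2 and 8.50 CPM in the young sets. All old sets were below both young sets (log2 fold change -0.79, edgeR adjusted p = 0.352). Over the 17 tested peaks of the Fli1 stretch the median log2 fold change was -0.15 and 0 were called. Between Fli1 and Ets1, the strongest peak was chr9:32363390-32364333, with 33.2, 32.9 and 35.4 CPM in the old sets, against 26.7 and 25.1 CPM in the young sets. The old sets were close together and above both young sets, yet the log2 fold change of 0.31 (SE 0.24) gave an edgeR adjusted p of 0.575, and it was -0.06 in cells thinned to equal depth. The next, chr9:32399282-32399938, had 16.5, 21.6 and 18.9 CPM in the old sets, against 16.4 and 15.1 CPM in the young sets (log2 fold change 0.19, edgeR adjusted p = 0.819).

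The flanks of the Fli1-Ets1 window had fold changes of opposite sign, again without calls. Below Fli1, chr9:32212750-32213223 had 11.5, 7.53 and 11.6 CPM in the old sets, against 20.7 and 13.1 CPM in the young sets (log2 fold change -0.72, unadjusted p = 0.0323, edgeR adjusted p = 0.266). The neighbouring chr9:32216536-32217522 had a log2 fold change of -0.42 (edgeR adjusted p = 0.571). All old sets were below both young sets at these peaks. Above Ets1, chr9:32597038-32597247 had the largest fold change of the 53 tested members, on 44 counts. The counts were 8, 16 and 16 in old 1, old 2 and old 3, against 1 and 3 in young 1 and young 2, or 1.91, 7.53 and 9.75 CPM against 0.862 and 1.16 CPM. The log2 fold change was 2.28 (SE 0.81, unadjusted p = 0.00719, edgeR adjusted p = 0.123), and without old 1 it was called at 2.89 (edgeR adjusted p = 0.0164). This peak, too, passed the count filter through old sets alone.

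**Figure D3:**
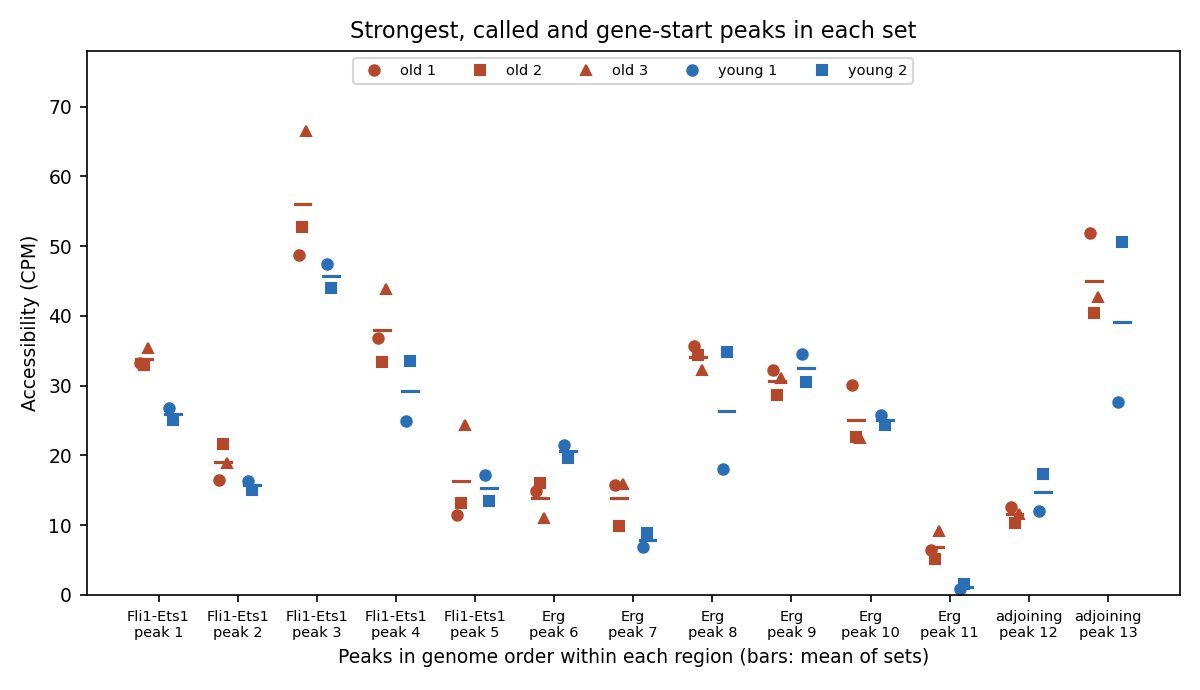
Accessibility in CPM of the strongest members, the called member and the peaks at Erg and Ets2 starts, with 1 symbol per set, old left of young, and bars at the mean of each age. Peaks 1 and 2 lie between Fli1 and Ets1, peaks 3 to 5 in the Ets1 stretch and peaks 6 to 11 in the Erg window; peak 10 is Erg start 3, peak 11 the called member, peak 12 Erg start 1 and peak 13 the Ets2 start. At peak 11 all old sets lie above both young sets at 5.18 CPM or more, and at peak 13 the old sets, at 40.5 to 51.9 CPM, overlap the young sets, at 27.6 and 50.6 CPM.

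Summed over all members, tested or not, each window had slightly higher means in old cells, with no difference past a threshold. The Erg window had 255.6, 267.2 and 238.3 CPM in old 1, old 2 and old 3, against 225.9 and 233.6 CPM in young 1 and young 2. The ages did not overlap, with means of 253.7 ± 14.6 and 229.7 ± 5.47 CPM (SD, n = 3 and 2) and a log2 ratio of 0.14 (exact permutation p = 0.2, two-sided). The Fli1-Ets1 window had 449.8, 449.7 and 529 CPM in the old sets, against 447.4 and 429.7 CPM in the young sets. Old 1 and old 2 were close to young 1 and old 3 stood above the rest, and the log2 ratio of 0.12 (exact permutation p = 0.4, two-sided) was 0.04 without old 3. Old 3, the shallowest of the old sets, was the highest set at 15 of the 35 tested members of that window, against 3 for old 1, 5 for old 2, 8 for young 1 and 4 for young 2. These sums use library totals, a scaling under which the median of all tested peaks lay at 0.09. With TMM-adjusted totals the log2 ratios were 0.07 for the Erg window and 0.04 for the Fli1-Ets1 window. With 3 sets against 2 the smallest exact p is 0.1. Over the 11 sums and ratios compared, the smallest Benjamini-Hochberg adjusted value was 0.44.

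Each gene's stretch was also summed on its own, and differences between stretches were not tested. The Ets1 stretch had 135.8, 153.4 and 180.4 CPM in the old sets, against 124.1 and 127.4 CPM in the young sets, a log2 ratio of 0.32 with no overlap (exact permutation p = 0.2, adjusted 0.44). The Fli1 stretch had 156.9, 149.1 and 180.4 CPM in the old sets, against 158.6 and 153.7 CPM in the young sets, with overlap and a log2 ratio of 0.05 that turned to -0.02 with TMM-adjusted totals. The peaks between Fli1 and Ets1 had a log2 ratio of 0.08 with overlap. The run near Erg start 3, bounded after the values were seen, had 166, 156.2 and 159.7 CPM in the old sets, against 131 and 144.4 CPM in the young sets, a log2 ratio of 0.22 without overlap (exact permutation p = 0.1, adjusted 0.44). The rest of the Erg window had a log2 ratio of 0.02, or -0.06 with TMM-adjusted totals. The adjoining stretch with the Ets2 start had 195.4, 169.8 and 195 CPM in the old sets, against 146.6 and 170.3 CPM in the young sets. Its log2 ratio was 0.24 with overlap (exact permutation p = 0.3, two-sided), and -0.157 in thinned cells. The 5 peaks below the Fli1 stretch had lower means in old cells, with a log2 ratio of -0.39 and no overlap (exact permutation p = 0.1, adjusted 0.44). That ratio was -0.17 without young 1 and -0.18 in thinned cells, in which the ages overlapped. With TMM-adjusted totals the log2 ratio was -0.47 for these peaks, 0.24 for the Ets1 stretch and 0.14 for the run near Erg start 3. It was 0.16 for the adjoining stretch and 0.001 for the peaks between Fli1 and Ets1.

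**Figure D4:**
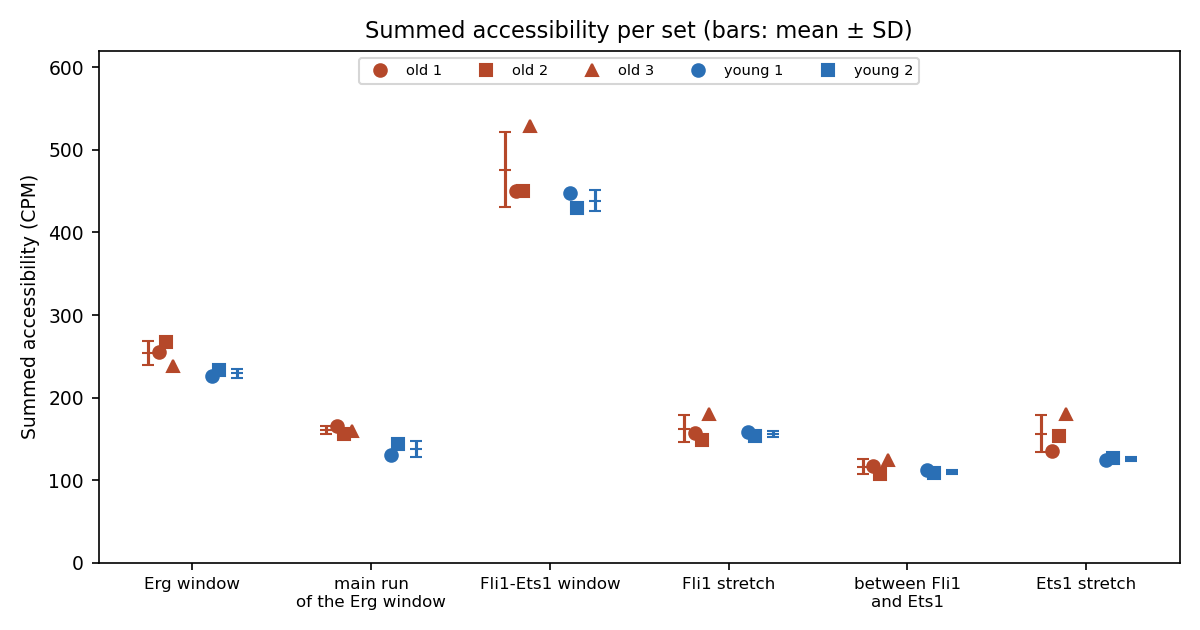
Summed accessibility of each window and stretch per set in CPM, old left of young, with the mean and SD of each age beside the points. In the Ets1 stretch all old sets, at 135.8 to 180.4 CPM, lie above the young sets at 124.1 and 127.4 CPM, whereas the Fli1 stretch overlaps.

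The windows were then set against each other within each set, where depth cancels. The comparison sets Fli1 and Ets1 against most of Erg with Kcnj15, and lacks Ets2. The Erg window had 0.568, 0.594 and 0.45 of the Fli1-Ets1 window's counts in old 1, old 2 and old 3, against 0.505 and 0.544 in young 1 and young 2. Old 3 gave the lowest ratio and old 2 the highest, so the old sets enclosed both young sets. The log2 ratio differed by 0.03 between old and young (exact permutation p = 0.9, two-sided, adjusted 0.99). Leaving out old 1, old 2 or young 1 turned its sign, to -0.02, -0.05 and -0.03.

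Cells were also compared at equal depth, each thinned to 1906 counts, because the median count per cell ran from 3604.5 to 9623 in the old sets and was 6133 and 11807 in the young sets. The Erg window had at least 1 count in 34.2%, 34.3% and 31.8% of cells in the old sets, against 26.6% and 32.9% in the young sets. The Fli1-Ets1 window had a count in 55.9%, 53.1% and 61.2% of cells in the old sets, against 57.1% and 56.2% in the young sets. The ages overlapped in both windows, with differences in the mean of 3.73 percentage points for the Erg window and 0.11 for the Fli1-Ets1 window (exact permutation p = 0.3 and 1, two-sided). The Erg window's difference was 0.567 percentage points without young 1 and 6.89 without young 2. The Ets1 stretch had a count in 23.9%, 22.1% and 25.0% of cells in the old sets, against 18.6% and 20.6% in the young sets, without overlap and at the smallest p the sets allow (exact permutation p = 0.1, two-sided). It is named because it was the only stretch without overlap in this share. Differences were 3.02 percentage points in the Fli1 stretch and -2.16 between Fli1 and Ets1, both with overlap. The p-values of shares were not adjusted for the number of comparisons. Without thinning the windows' shares were 12.5 and 10.3 percentage points lower in old than in young cells, the opposite sign.

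The share of cells with counts in both windows was close to the product of the separate shares in every set, a comparison made without a test. At equal depth 19.4%, 18.3% and 17.9% of cells had counts in both windows in the old sets, against 14.7% and 20.6% in the young sets. The product of the separate shares was 19.1%, 18.2% and 19.4% in the old sets, against 15.2% and 18.5% in the young sets. Cells with a count in neither window made up 29.3%, 30.8% and 25.0% of the old sets, against 31.1% and 31.5% of the young sets.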

How the data were processed

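Per the labels' protocols, single cells sorted from bone marrow by FACS were profiled by plate-based single-cell ATAC-seq. The authors deposited unnormalized counts, whole numbers for each peak in each cell. Tools credited to the submitters' processing notes are Bowtie2, Picard, SAMtools, Trim Galore and FastQC, with no version, and the build is mm9. How peaks were called, from which cells, and what was counted (reads or fragments) is not given in the sources used here. Any duplicates left in would inflate single peaks; 77.7% of nonzero entries were 1. Had all cells been pooled to call peaks, old cells, with 7948334 of the counts against 3749851 for young cells, weighed more in which regions became peaks.

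Counts were summed per set, with totals from 1640887 to 4181770 in the old sets and of 1159957 and 2589894 in the young sets. They were tested with edgeR 4.0.16 in R 4.3.3 (TMM scaling, filterByExpr with a minimum count of 10, robust quasi-likelihood fit, old against young over all 5 sets, Benjamini-Hochberg adjustment over 58167 peaks). Standard errors are the log2 fold change over the square root of F, and intervals are 1.96 of them either way. Their width comes from the number of sets, the counts per peak and the variation among sets, and they do not cover errors shared by all sets. CPM scale the counts of a peak to the total count of its set, whereas fold changes of single peaks use TMM-adjusted totals, so they can differ slightly. For sums, ratios and shares, the age labels were permuted exactly over 10 splits of the sets (two-sided). Shares used cells thinned at random to 1906 counts (the 10th percentile over cells), and 222, 367 and 340 cells of the 3 old sets and 177 and 146 of both young sets were deep enough. Python steps used numpy 2.4.6, pandas 2.3.3 and matplotlib 3.10.9. The fit was also run on counts simulated from the totals and common dispersion of the main fit, with no result given here.

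The members and lists were chosen with earlier results of these data known. The peaks named in each window are those called, the 5 of highest mean CPM, and the 3 of smallest p in each direction, 20 in all; others were named for their position at a gene end or in the adjoining stretch, after their values were seen. Alternatives concerned the test, scaling (DESeq2 1.42.0), count filter, binarized or thinned counts, threshold, window bounds, weight of cells, narrow peaks, the set number as a block and each set left out. Peaks were not assigned to genes beyond the placement described, and the markers of the sorted cells and ETS protein sequences were not analysed here.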

Additional observations from a re-analysis of the deposited data

How the results depend on the processing

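Over all tested peaks 1844 were called, with 840 at an adjusted p under 0.01, 769 at a minimum count of 30, 208 in thinned cells, 426 by DESeq2 and 776 to 1641 with 1 set left out. The Erg window had 1 called peak, with 0 at an adjusted p under 0.01, 0 by DESeq2 and 0 to 0 with 1 set left out. With the window widened by 300 kb on either side there were 3. The calls added by widening lay below the window, since 0 of the 12 tested peaks in the adjoining stretch above it were called. At a minimum count of 30 and in thinned cells the window had 0, but only 5 and 2 of its members were tested there. The called peak was not among them, so these settings did not retest it. The Fli1-Ets1 window had 0, with 1 without a count filter and 0 to 1 with 1 set left out (1 without old 1), each time chr9:32597038-32597247, whose edgeR adjusted p ran from 0.0164 to 0.364 over its alternatives. For the called Erg peak the edgeR adjusted p ran from 0.0215 to 0.193, and DESeq2 gave a log2 fold change of 2.32 without an adjusted p. Deviations from the age mean were nearly uncorrelated between sets of the same number (-0.0664 for sets 1 and 0.000861 for sets 2). With 2 young sets, whose deviations mirror each other, this cannot tell whether such sets were prepared together. With the replicate block 1102 peaks were called over the table, 0 of them in the Erg window and 0 in the Fli1-Ets1 window.

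Several log2 ratios of sums changed sign, most of them near 0, and the cause was not tested. The Fli1 stretch gave -0.0404 binarized, -0.0243 with TMM-adjusted totals, -0.0123 without members under 300 bp and -0.0294 (without old 3) to 0.111 with 1 set left out. The peaks between Fli1 and Ets1 gave -0.0228 binarized and -0.10 thinned. The rest of the Erg window gave -0.0724 binarized, -0.0593 with TMM-adjusted totals, -0.0545 as the mean of each cell's share, -0.0303 without members under 300 bp and -0.129 (without old 2) to 0.125 with 1 set left out. The adjoining stretch, whose main log2 ratio of 0.237 was not near 0, gave -0.157 thinned. The ratio of the windows ran from -0.0501 (without old 2) to 0.15 with 1 set left out. The difference in share of cells was -12.5 percentage points for the Erg window and -10.3 for the Fli1-Ets1 window without thinning, and with 1 set left out 0.567 to 6.89 for the Erg window and -2.12 (without old 3) to 1.90 for the Fli1-Ets1 window. The sums of both windows, the Ets1 stretch, the run near Erg start 3 and the peaks on either flank of the Fli1-Ets1 window kept their sign under every alternative run. Binarized, the log2 ratios of the windows were 0.0763 for Erg and 0.0463 for Fli1-Ets1, and the peaks below Fli1 gave -0.171 as the mean of each cell's share.

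Of 229 values of the 20 named peaks under alternatives, 14 reversed in sign, all from 5 peaks without a call. They were -0.0554 for chr9:32363390-32364333 thinned and -0.212 for chr9:32503118-32504158 thinned. With 1 set left out, chr16:95660417-95661795 ran from -0.0941 (without young 1) to 0.875 (without young 2). The Erg start 3 peak gave 0.0616 with library totals, 0.0497 at a minimum count of 30 and -0.187 (without old 1) to 0.0635 (without old 3) with 1 set left out. The peak chr9:32517038-32517937 gave 0.0247 binarized, 0.068 with library totals, 0.0585 at a minimum count of 30 and -0.337 (without old 3) to 0.254 (without old 1) with 1 set left out. Scaling by library totals moved the median log2 fold change of all peaks from -0.01 to 0.09. Peaks with few counts limit what could be seen: 47 members were below the filter, and changes under 2-fold were within the intervals of most tested members.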
